A study of Rattus norvegicus with 6 samples.

Results

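The ion channels, pumps and solute carriers on this array were 46 probes for 46 genes, taken from 1185 probes in all. They were chosen by name, as every probe whose single gene symbol begins with Slc, Kcn, Scn, Cacn, Clcn, Abc, Aqp, Atp1a, Atp1b, Atp2a, Atp2b, Trpc, Trpv or Trpm. Earlier results of these data were known when these prefixes were chosen. The search gave 24 solute carriers, 14 potassium channel subunits, 2 calcium channel subunits, 2 TRP channels, 2 ABC transporters, 1 sodium channel and 1 calcium pump. The prefixes Clcn, Aqp, Atp1a, Atp1b, Atp2a, Trpv and Trpm matched 0 probes, so the sodium pump and the calcium pump of the sarcoplasmic reticulum are not analysed here.

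Total RNA came from whole rat hearts, 3 subjected to cardiopulmonary bypass (CPB, where a machine pumps and oxygenates the blood in place of heart and lungs) and 3 from sham-operated animals, with 1 array for each heart. The keywords in the labels name cytokines and inflammation of the heart. Strain, age, the time of sampling and the length of bypass are not stated in those labels. They also do not say that the replicates came from separate experiments, so p-values measure at most the spread between these 6 samples. In a whole heart, fewer cells of a type and less RNA per cell cannot be told apart.

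The heartbeat depends on membrane proteins that move ions in a fixed order. Sodium and calcium channels depolarise the muscle cell, potassium channels restore and hold its resting voltage, and pumps and exchangers return the ions against their gradients. Solute carriers bring in the fuels, amino acids and metals that the cell uses. ABC transporters spend ATP to move lipids, metabolites and drugs. Many genes of these families are known from other organs, such as kidney, liver, intestine or brain.

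Each array listed no value below a lowest level of its own, and values rose from it in equal steps on the linear scale. A probe was counted as above the lowest value when it lay at least 1 step over it. No source used here says what the lowest level stands for, so a probe at it has no measured level, and a probe above it is not thereby shown to be expressed. The first step was worth 0.37 to 1.09 on the log2 scale, depending on the array. The lowest level itself was 7.42 to 9.12 in log2 of the deposited values. Here and below, log2 and sums of deposited values were taken after returning them to the linear scale through the hyperbolic sine, without normalization. Of all probes, 10.7% (CPB replicate 2) to 47.3% (CPB replicate 3) were at it. All 6 cardiomyocyte markers measured (Myh6, Tnnt2, Tnni3, Ckm, Pln and Casq2) were above the lowest value on all arrays.

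Many of the 46 genes were at the lowest level or next to it. Above it on all 6 arrays were 13 genes (28.3%), against 498 of the 1185 probes (42.0%). At it on all 6 arrays were 3 genes (6.52%), against 41 probes (3.46%), and the other 30 genes were above it on some arrays only. As many as 23 genes (50%) never reached a second step on any array, against 288 of all probes (24.3%). With a margin of at least 2 steps on every array, 6 genes remained among the 13: Kcnk3, Slc3a1, Slc3a2, Slc8a1, Slc26a2 and Abcd3. These were 13% of the 46, against 268 of all probes (22.6%). With at least 3 steps there were 4 (8.7%, against 194 of all probes, 16.4%), namely Kcnk3, Slc3a1, Slc3a2 and Slc8a1.

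**Figure D1:**
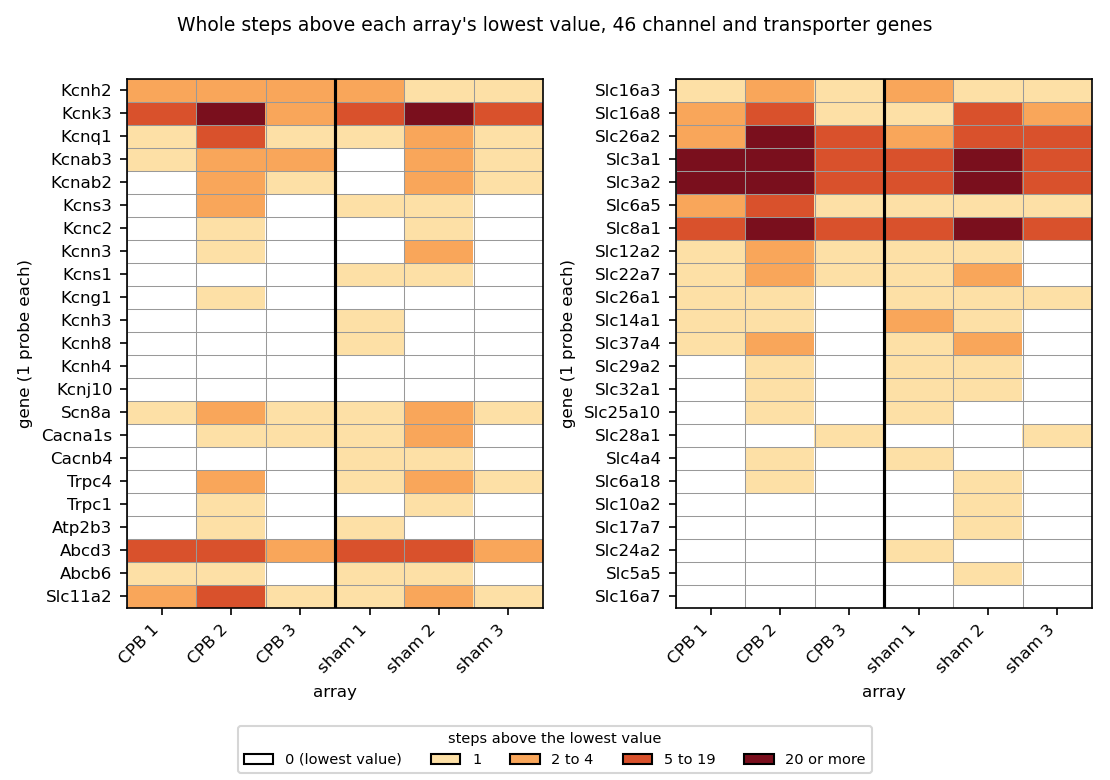
Whole steps above each array's own lowest value for the 46 genes (rows, grouped by family) on the 3 CPB and 3 sham arrays (columns), with white for the lowest value itself. Few rows are filled on every array; the rows of Kcnk3, Slc3a1, Slc3a2 and Slc8a1 stay at 3 or more steps throughout. Colours show distance from the lowest value and rank neither genes nor arrays by level, since step sizes differ between arrays and probes differ in signal.

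The share of these genes above the lowest value covered nearly the same range in both groups. It was 43.5%, 73.9% and 41.3% on CPB replicates 1, 2 and 3, and 69.6%, 76.1% and 39.1% on sham replicates 1, 2 and 3. The arrays numbered 3 had the lowest share in sham and in CPB hearts. Over all probes the shares were 72.6%, 89.3% and 52.7% in CPB and 74.1%, 79.5% and 56.7% in sham hearts. Added up over the 3 arrays, 73 of 138 values (52.9%) were above the lowest level in CPB and 85 of 138 (61.6%) in sham hearts, where all probes gave 71.5% and 70.1%. In CPB and sham these were 20 and 32 genes on the arrays numbered 1. They were 34 and 35 on those numbered 2, and 19 and 18 on those numbered 3. The gap between the groups thus lay in the arrays numbered 1.

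CPB replicate 1 and sham replicate 1 had nearly equal shares over all probes and unequal shares for the channels and transporters. Above the lowest value on sham replicate 1 and at it on CPB replicate 1 were 13 of the 46 genes, and Kcnab3 alone showed the opposite. Over all probes the corresponding counts were 130 and 112. The 13 were Atp2b3, Cacna1s, Cacnb4, Kcnh3, Kcnh8, Kcns1, Kcns3, Slc4a4, Slc24a2, Slc25a10, Slc29a2, Slc32a1 and Trpc4. Each lay exactly 1 step above the lowest value on sham replicate 1. That array held 34.9% of all probes at exactly 1 step, against 22.9% on CPB replicate 1, and the part of this in the 13 genes was not tested.

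**Figure D2:**
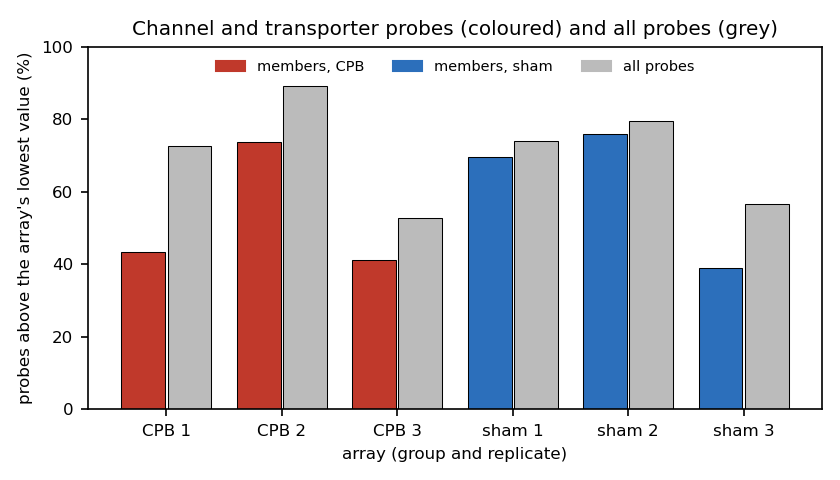
Percentage of probes above the array's lowest value on each array, for the 46 channel and transporter genes (coloured bars) and for all 1185 probes (grey bars). On all 6 arrays the coloured bar is shorter than the grey bar, and the gap is widest on CPB replicate 1 (43.5% against 72.6%).

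No gene of the 46 passed the adjusted threshold between CPB and sham hearts, and nor did any of the 1185 probes (limma with Benjamini-Hochberg adjustment, adjusted p of 0.05, 0 called, 0%). The lowest adjusted p among the 46 was 0.909. An unadjusted p under 0.05 was reached by 1 of the 46 genes (2.17%), against 2.95% of all probes. Groups that did not overlap were seen for 1 gene (2.17%), against 4.22% of all probes. Both counts refer to Kcnk3 and lie near or below the background share. An exact permutation test of 3 against 3 hearts cannot go below p = 0.1.

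Kcnk3 encodes TASK-1, a background potassium channel that helps to set the resting voltage of atrial muscle and of other excitable cells. Its quantile-normalized log2 value was 10.69, 10.87 and 10.49 on CPB replicates 1, 2 and 3. On sham replicates 1, 2 and 3 it was 11.13, 11.54 and 11.33. All 3 CPB hearts lay under all 3 sham hearts, by 0.26 at the nearest. The gene was 7, 20 and 3 steps above the lowest value in CPB and 6, 22 and 6 steps in sham hearts.

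The difference in Kcnk3 was -0.65 on the log2 scale (SE 0.30, 95% interval -1.29 to -0.02, limma unadjusted p = 0.0440, adjusted p = 0.909). CPB hearts had a mean of 10.68 ± 0.19 (SD, n = 3), and the mean of sham hearts was 11.34 ± 0.20 (SD, n = 3). Kcnk3 was lower in CPB hearts in all 13 alternatives tried, by 0.31 to 0.76 on the log2 scale, with adjusted p from 0.603 to 0.995. When arrays were scaled to the same median in place of quantile normalization, the difference was -0.31 (SE 0.50, limma adjusted p = 0.934) and the groups overlapped. Blocking on replicate number gave -0.65 (SE 0.13, limma adjusted p = 0.724).

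Kcnq1 and Kcnh2, which encode delayed rectifier channels, were also above the lowest value on all arrays. Kcnq1, the pore subunit of the slow delayed rectifier current, was only 1, 7 and 1 steps above it in the 3 CPB hearts, with 1, 3 and 1 steps in sham hearts. Its difference was 0.02 (SE 0.36) with quantile normalization and -0.26 in the values as deposited, with overlapping groups. Kcnh2, which carries the rapid delayed rectifier current, lay at 2, 3 and 2 steps in CPB and 2, 1 and 1 steps in sham hearts. It differed by 0.23 (SE 0.37, limma adjusted p = 0.998), and by -0.08 in the values as deposited. So neither channel had a direction that held across scalings, and the 95% intervals (-0.74 to 0.78 for Kcnq1 and -0.56 to 1.03 for Kcnh2) allow changes either way.

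The remaining 11 potassium channel subunits were above the lowest value on some arrays or on none. Kcnab3 and Kcnab2, cytoplasmic beta subunits, were above it on 5 and 4 arrays (3 CPB with 2 sham, and 2 with 2). Kcns3 was above it on 3 arrays (1 CPB and 2 sham), and Kcnc2 and Kcnn3 each on 1 CPB and 1 sham array, in every case replicate 2. Kcns1 was above it on sham replicates 1 and 2 only, Kcnh3 and Kcnh8 on sham replicate 1 only, and Kcng1 on CPB replicate 2 only. Kcns and Kcng subunits are known as silent partners that modify other channels, and Kcnh3 and Kcnh8 as brain channels. Kcnh4, of the same family, and Kcnj10, an inward rectifier of glia and kidney, were at the lowest value on all 6 arrays.

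Scn8a, a voltage-gated sodium channel best known from neurons and also present in heart muscle, was 1, 2 and 1 steps above the lowest value in CPB and 1, 3 and 1 steps in sham hearts. Its difference was -0.24 (SE 0.34, limma adjusted p = 0.974). Single hearts moved it: dropping sham replicate 1 gave -0.43, dropping CPB replicate 3 gave -0.41 and dropping sham replicate 3 gave -0.12. As deposited it was -0.58. Both calcium channel genes were at the lowest value on some arrays. Cacna1s, the pore subunit of skeletal muscle, was above the lowest value on 2 CPB and 2 sham arrays, with 3 steps at most. Cacnb4, an auxiliary beta subunit, was at the lowest value on all 3 CPB arrays and 1 step above it on sham replicates 1 and 2 (limma unadjusted p = 0.0632, adjusted p = 0.909). Kcns1 had the same steps on every array and so the same p. Neither has a measured level in CPB hearts, so no fold is given. Their CPB SD of 0.06 is that of the normalized lowest level itself (8.61, 8.56 and 8.68). This p therefore does not measure a spread between CPB hearts.

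Trpc4 and Trpc1, cation channels linked to receptor-driven calcium entry, were above the lowest value on 1 CPB with 3 sham arrays and on 1 with 1. Trpc4 lay at 0, 3 and 0 steps in CPB and 1, 3 and 1 steps in sham hearts. Atp2b3, a calcium pump of the plasma membrane known mainly from brain, was above the lowest value on CPB replicate 2 and sham replicate 1 only, by 1 step each. No other pump gene was in the set.

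Slc8a1 encodes the sodium-calcium exchanger, the main route by which heart muscle returns calcium to the outside. CPB hearts 1, 2 and 3 stood 6, 32 and 6 steps above the lowest value, and sham hearts 8, 21 and 5 steps. The normalized log2 values were 10.50, 11.35 and 11.32 in CPB and 11.54, 11.46 and 11.13 in sham hearts. CPB replicate 1 was the low heart, and the other 5 lay within 0.40 of each other. CPB minus sham was -0.32 (SE 0.32, limma adjusted p = 0.909), with a 95% interval of -1.005 to 0.36. Without CPB replicate 1 it was -0.04, and it was 0.03 when arrays were scaled to the same median.

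**Figure D3:**
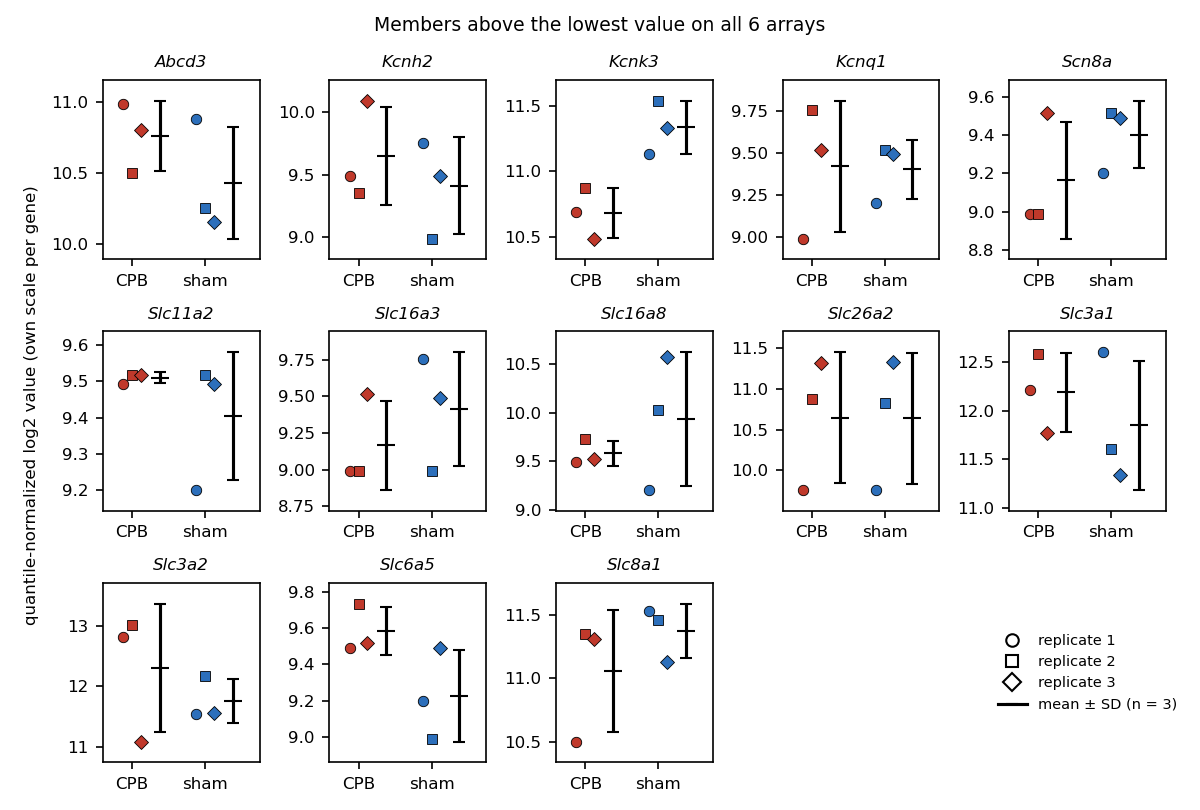
Quantile-normalized log2 values of the 13 genes above the lowest value on all 6 arrays, in CPB (red) and sham (blue) hearts; symbols mark the replicate numbers, bars give mean ± SD (n = 3), and each gene has its own scale. Kcnk3 is the panel in which the groups are apart; in Slc3a2 and Slc8a1 a single CPB heart lies far from the other hearts of its group.

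Slc3a2 and Slc3a1 encode the heavy chains that carry amino acid transporters to the cell surface, the former in most tissues and the latter chiefly in kidney and intestine. Slc3a2 stood 37, 99 and 5 steps above the lowest value in CPB hearts 1, 2 and 3, and 8, 38 and 7 steps in sham hearts. Its normalized log2 values were 12.82, 13.00 and 11.08 in CPB and 11.54, 12.17 and 11.55 in sham hearts. Hence 2 CPB hearts were the highest and the third CPB heart was the lowest of all 6. CPB minus sham was 0.55 (SE 0.42, limma adjusted p = 0.909), with a 95% interval of -0.35 to 1.45, the largest upward difference of the 46 genes. Its size moved with each CPB heart. It was 0.30 without CPB replicate 1, 0.23 without CPB replicate 2 and 1.14 without CPB replicate 3 (limma unadjusted p = 0.00344, adjusted p = 0.884). It was 0.90 when arrays were scaled to the same median.

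Slc3a1 was 24, 73 and 9 steps above the lowest value in CPB and 18, 23 and 6 steps in sham hearts. Its normalized log2 values were 12.21, 12.58 and 11.77 in CPB and 12.60, 11.60 and 11.33 in sham hearts. The highest value of all was in sham replicate 1, and the groups overlapped. CPB minus sham was 0.34 (SE 0.35, limma adjusted p = 0.909). Leaving out sham replicate 3 made it 0.08, and leaving out sham replicate 1 made it 0.73.

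Among the carriers of fuels and ions, 4 further genes were above the lowest value on all arrays. Slc16a3 exports lactate from glycolytic cells, and Slc16a8 is a lactate carrier known from the retinal pigment epithelium. Slc16a3 lay at 1, 2 and 1 steps in CPB and 2, 1 and 1 steps in sham hearts (difference -0.25, SE 0.35, and -0.10 without sham replicate 1). Slc16a8 lay at 2, 6 and 1 steps in CPB and 1, 5 and 3 steps in sham hearts (difference -0.35, SE 0.39, and 0.03 without sham replicate 3). Both stood so near the lowest level that a step more or less changes the value.

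Slc26a2 carries the sulfate that proteoglycan synthesis needs. It was 3, 20 and 6 steps above the lowest value in CPB and 2, 12 and 6 steps in sham hearts. Its normalized log2 values, 9.76, 10.87 and 11.32 in CPB and 9.76, 10.83 and 11.33 in sham hearts, varied with the replicate number and hardly with the group. The difference was 0.01 (SE 0.45, 95% interval -0.94 to 0.96), and -0.18 in the values as deposited. Slc11a2, which imports iron and other divalent metals, lay at 2, 5 and 1 steps in CPB and 1, 3 and 1 steps in sham hearts. It differed by 0.11 (SE 0.34), and by -0.16 in the values as deposited.

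Slc6a5 is the glycine carrier of inhibitory nerve endings in spinal cord and brain stem, and it too was above the lowest value on all arrays. It lay at 2, 6 and 1 steps in CPB and at 1 step on each sham array. The normalized log2 values were 9.49, 9.73 and 9.52 in CPB and 9.20, 8.99 and 9.49 in sham hearts. The lowest CPB value, on replicate 1, and the highest sham value, on replicate 3, were equal, which was counted as overlap. The difference was 0.35 (SE 0.34, limma adjusted p = 0.909), 0.53 without sham replicate 3 and 0.12 in the values as deposited. Beside it, 6 nerve and glia markers were measured, of which 3 (Gfap, Prph and S100b) were above the lowest value on all arrays and 0 were at it on all. The log2 of their summed deposited values was 12.25 to 12.50 in CPB and 12.49 to 12.90 in sham hearts. These sums are not normalized, and the deposited array medians differed by -0.39 on the log2 scale (CPB minus sham). The part of nerve and glia in the values of nerve-type carriers was not tested.

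The other 16 solute carriers were at the lowest value on 1 or more arrays. Slc12a2, the sodium, potassium and chloride cotransporter, was above it on 3 CPB and 2 sham arrays, at 1, 2 and 1 steps in CPB and 1, 1 and 0 steps in sham hearts. It differed by 0.21 (SE 0.29, limma adjusted p = 0.974), by 0.04 without CPB replicate 3 and by -0.11 in the values as deposited. Slc22a7, an organic anion carrier of liver and kidney, was above the lowest value on 3 CPB and 2 sham arrays as well. Slc26a1, another sulfate carrier, was above it on 2 CPB and 3 sham arrays, and the urea carrier Slc14a1 and the glucose phosphate carrier Slc37a4 on 2 and 2.

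Slc29a2, a nucleoside carrier, and Slc32a1, which loads inhibitory transmitter into synaptic vesicles, had equal steps on every array. They were 0, 1 and 0 steps above the lowest value in CPB and 1, 1 and 0 in sham hearts (limma unadjusted p = 0.0797, adjusted p = 0.909). The unadjusted p was 0.0239 without sham replicate 3 and 0.243 without sham replicate 1 (limma adjusted p = 0.787 and 0.918). With 2 of 3 CPB arrays at the lowest value, no fold is given. Their normalized CPB values (8.61, 8.61 and 8.68) stayed at that level or 1 step from it, so these p-values also do not measure a spread between CPB hearts. The mitochondrial dicarboxylate carrier Slc25a10 and the bicarbonate cotransporter Slc4a4 were above the lowest value on CPB replicate 2 and sham replicate 1. The nucleoside carrier Slc28a1 was above it on both arrays numbered 3, and Slc6a18, a kidney amino acid carrier, on both numbered 2. Several carriers known mainly from other organs were above it on a single array. Slc10a2 (bile acid uptake in the ileum), Slc17a7 (glutamate loading of synaptic vesicles) and Slc5a5 (iodide uptake in the thyroid) were so on sham replicate 2 only, and Slc24a2, a calcium exchanger of neurons, on sham replicate 1 only. Slc16a7, another monocarboxylate carrier, was at it on all 6 arrays.

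The 2 ABC transporters differed in how firmly they were measured. Abcd3, a transporter of the peroxisome membrane that takes in fatty acid derivatives, was 9, 15 and 4 steps above the lowest value in CPB and 5, 7 and 2 steps in sham hearts. Its normalized log2 values were 10.99, 10.50 and 10.81 in CPB and 10.88, 10.25 and 10.16 in sham hearts. Within each replicate number the CPB heart was the higher on this scale, but the groups overlapped. As deposited, CPB replicate 1 (10.89) lay under sham replicate 1 (10.96). CPB minus sham was 0.33 (SE 0.33, limma adjusted p = 0.909), with a 95% interval of -0.36 to 1.03. It was 0.21 without CPB replicate 1, 0.62 without sham replicate 1, 0.19 without sham replicate 3 and 0.66 when arrays were scaled to the same median. Abcb6, a transporter linked to porphyrins, was above the lowest value on 2 CPB and 2 sham arrays and never by more than 1 step.

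Of the 46 differences, 14 were higher in CPB hearts, 29 lower and 3 equal, with a median of -0.16 on the log2 scale. Over all 1185 probes, 501 were higher, 622 lower and 62 equal, with a median of -0.03. This split moved with the scaling. In the values as deposited, 4 of the 46 were higher and 42 lower, with a median of -0.53 against -0.29 over all probes. After median scaling, 13 were higher and 33 lower, with a median of -0.14 against 0.11 over all probes. Relative to all probes the 46 genes thus had a median of -0.13 with quantile normalization and of -0.25 in the values as deposited. Median scaling shifts the difference of every probe by the same amount. Its -0.25 is therefore the same result by construction and not a second one. Among the 46 genes there were 0 calls under each scaling.

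The lowest level itself differed between arrays, and genes at it take that difference. In log2 of the deposited values it was 7.42, 8.08 and 9.08 on CPB replicates 1, 2 and 3 and 8.76, 8.16 and 9.12 on sham replicates 1, 2 and 3. The arrays numbered 2 and those numbered 3 had nearly equal levels, and CPB replicate 1 stood far under sham replicate 1. A probe at the lowest value on all 6 arrays differed by -0.49 on the log2 scale in the values as deposited, by -0.09 after median scaling and by 0 with quantile normalization, with no level measured in either group. Most of the -0.49 thus comes from the arrays numbered 1. The part of this in the members' median was not tested. Of the 46 genes, 8 were at the lowest value on all 3 CPB arrays and above it on 1 or 2 sham arrays, never by more than 1 step (17.4%, against 5.23% of all probes). They were Cacnb4, Kcnh3, Kcnh8, Kcns1, Slc5a5, Slc10a2, Slc17a7 and Slc24a2. The opposite pattern held for Kcng1 alone (2.17%, against 5.23% of all probes), again by 1 step. The 13 genes measured on all arrays had differences of -0.65 to 0.55, 8 higher and 5 lower, with a median of 0.02. The 498 probes measured on all arrays had the same median, 0.02.

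Markers of other cell types were measured beside these genes. Their sums use deposited values without normalization, and each sum follows its brightest probes. In the deposited values the array medians differed by -0.39 on the log2 scale (CPB minus sham). The sums carry that difference in array scale, whereas the differences of single genes are quantile-normalized. Both fibroblast markers (Sparc and Dcn) were above the lowest value on all arrays, and the log2 of their summed deposited values was 13.42 to 14.47 in CPB and 14.82 to 15.16 in sham hearts. Sparc differed by -1.504 (SE 0.33, limma unadjusted p = 0.000313, adjusted p = 0.371) with groups apart, and Dcn by -0.51 (SE 0.44) with overlap. The 5 leukocyte markers, 4 of them above the lowest value on all arrays, summed to 12.73 to 13.62 in CPB and 13.41 to 13.69 in sham hearts. Of these, 1 was higher and 4 were lower, all with overlapping groups. S100a9 differed by -1.07 (SE 0.47, limma unadjusted p = 0.0356, adjusted p = 0.909). Cd8a went the other way by 0.92 (SE 0.47, limma unadjusted p = 0.0689, adjusted p = 0.909). C1qb differed by -0.38, Cd3d by -0.15 and Aif1 by -0.02. The 2 smooth muscle markers, both above the lowest value on all arrays, summed to 12.87 to 13.82 and 13.09 to 13.40. The 6 cardiomyocyte markers summed to 19.32 to 19.44 in CPB and 18.91 to 19.36 in sham hearts, with 3 higher and 3 lower. The part of other cell types in the members' differences was not tested.

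**Figure D4:**
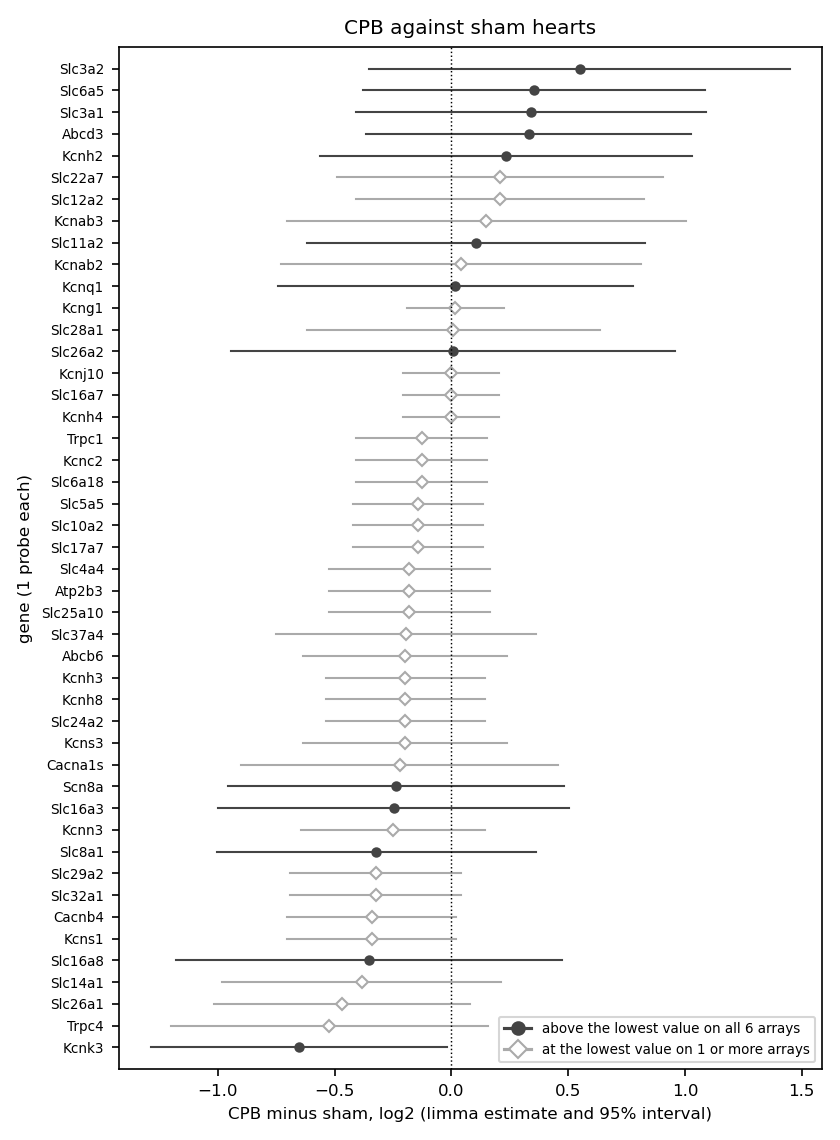
CPB minus sham difference on the quantile-normalized log2 scale with its 95% interval (limma) for the 46 genes, ordered by size. Filled circles are genes above the lowest value on all 6 arrays and open diamonds the rest. The narrowest intervals reflect values held at the lowest level, but other diamonds have wide ones (Trpc4, -1.20 to 0.16). The interval of Kcnk3 (-1.29 to -0.02) alone leaves out 0, and 14 genes lie to the right of 0, a number that was 4 in the values as deposited and 13 after median scaling.

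By family, the 14 potassium channel subunits had 5 higher, 7 lower and 2 equal differences. Their median was -0.06, but -0.51 in the deposited values and -0.12 once medians were equalised. The 24 solute carriers had 8 higher, 15 lower and 1 equal. Their median was -0.14, with -0.53 and -0.13 under those scalings. Over all probes the medians were -0.03, -0.29 and 0.11 in the same order of scalings. The calcium channel, TRP, sodium channel and calcium pump genes, 6 in all, were each lower under all 3 scalings, and 5 of these 6 were at the lowest value on 1 or more arrays. A probe at the lowest value on all arrays was itself lower as deposited (-0.49) and after median scaling (-0.09). Those 2 scalings also differ only by a constant for each array, so the 3 directions are not separate results. None of the 6 genes passed the adjusted threshold, and 0 of them had an unadjusted p under 0.05 with quantile normalization (limma).

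Partners of these proteins and channels named by other symbols were read from a fixed list of membrane transport genes, of which 18 probes were measured. Of these, 3 were higher, 14 lower and 1 equal in CPB hearts. Their median was -0.20, and -0.55 and -0.15 under the same scalings, against -0.03, -0.29 and 0.11 over all probes. Of the 18, 0 passed the adjusted threshold or had an unadjusted p under 0.05 (limma). The probes above the lowest value on all arrays were 5. Pln, the brake on the calcium pump of the sarcoplasmic reticulum, was 123, 334 and 85 steps above it in CPB and 73, 264 and 98 steps in sham hearts. On the quantile-normalized log2 scale it was lower in CPB hearts (14.49, 14.61 and 14.61) than in sham hearts (14.68, 14.83 and 15.05), with groups apart. The difference was -0.28 (SE 0.27, limma adjusted p = 0.909). As deposited the groups overlapped (14.54, 14.72 and 14.75 in CPB and 14.50, 14.99 and 15.13 in sham hearts). The array medians as deposited differed by more than Pln did (-0.39, CPB minus sham). Scaling arrays to the same median therefore turns Pln higher in CPB hearts, and its direction did not hold across scalings. Casq2, which stores calcium there, lay at 36, 170 and 29 steps in CPB and 19, 96 and 13 steps in sham hearts, a difference of 0.38 (SE 0.33) with overlap. Cav3, the caveolin of muscle membranes, lay at 3, 5 and 1 against 1, 4 and 2 steps, a difference of -0.11 (SE 0.36). The proton pump subunits Atp6v0a1 and Atp6v1b2 completed the 5, at 1, 10 and 2 against 3, 5 and 1 steps, and at 3, 14 and 3 against 4, 7 and 1 steps. They differed by -0.22 (SE 0.39) and 0.09 (SE 0.38), both with overlap. The 3 ligand-gated channel genes of brain (Grik4, Grik5 and Grin3a) were at the lowest value on 2, 3 and 3 of the 3 CPB arrays and on 1, 1 and 2 of the 3 sham arrays.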

How the data were processed

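The authors deposited 1 table of 1185 probes for 6 arrays (3 CPB, 3 sham), on what the values themselves show to be a natural log scale; the labels state no unit. The hyperbolic sine of the values lay on equal steps above each array's lowest value, to within 6.22e-06 of a step. No source used here names the background correction or normalization. Values were returned to the linear scale, quantile normalized, converted to log2 and tested with limma 3.58.1 in R 4.3.3 (eBayes with a variance trend, two-sided, no pseudocount, Benjamini-Hochberg over all probes, threshold 0.05), after tests on simulated data. Array medians differed 2.52 times on the linear scale. The number of arrays limits the precision.

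Gene symbols came from the platform annotation (1113 probes with 1 symbol, 2 with several, 70 unnamed); 45 of the 46 members were found under the same symbol in RefSeq GRCr8, and Cacna1s kept its annotated name. Members and lists were chosen with earlier results of these data known. Every array value is given for members above the lowest value on all arrays, with groups apart, or among the 5 smallest p per direction (18 genes); others are named by the arrays on which they were above it. Replicate numbers are shared between groups: deviations from group means correlated at 0.240, 0.277 and 0.296 for numbers 1, 2 and 3, so they may pair the samples. This rests on the data alone, and the main fit used no block. Alternatives changed the scaling, pseudocount (25th percentile), filter, block, variance trend, margin over the lowest value and arrays included. Of the marker lists, 0 markers of endothelial, erythroid and fat cells were measured.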

Additional observations from a re-analysis of the deposited data

How the results depend on the processing

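No alternative brought a member past the adjusted threshold (0 in all 13). In the main fit 1 member had an unadjusted p under 0.05 (limma), against 2.95% of all probes. As deposited there were 2 (Kcnk3 and Trpc4, against 3.88%), and after median scaling 0 (against 1.69%). Among probes above the lowest value on all arrays there were 0 (against 4.42%). With a single array left out there were 0 to 4, against 1.77% to 6.08% of all probes. Without both arrays numbered 3 there were 6, where 4.98% of all probes had such a p. The 4 without sham replicate 3 were Cacnb4, Kcns1, Slc29a2 and Slc32a1, which on every array were at the lowest value or 1 step above it. Without CPB replicate 3 the 1 was Slc3a2. Groups were apart for 1 member (against 4.22% of all probes), for 2 as deposited (4.05%) and for 0 after median scaling (4.3%). With a single array left out they were apart for 2 to 8 members, against 8.35% to 13.9% of all probes. The 8 were reached without CPB replicate 3 and without sham replicate 3, where the shares of all probes were 13.9% and 11.5%. Without both arrays numbered 3 there were 11 (19.9% of all probes, since groups of 2 part more easily). The median over members was -0.53 as deposited, -0.224 to -0.019 with a single array left out, and -0.323 without both arrays numbered 3 (0 over all probes). The replicate block left 1 member under 0.05 and changed no call.

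Above the lowest value on all 6 arrays were 13 members (28.3%, against 42% of all probes). There were 6 with at least 2 steps (13%, against 22.6%) and 4 with at least 3 steps (8.7%, against 16.4%). When the highest of the lowest values was applied to every array there were 6 (13%, against 30.8%). Leaving out a single array gave 13 to 15, against 42% to 47.9% of all probes. Leaving out both arrays numbered 3 gave 19 (41.3%, against 58.1% of all probes). At the lowest value on all 6 arrays were 3 members (6.52%, against 3.46% of all probes). Never reaching 2 steps were 23 (50%, against 24.3%), and never reaching 3 steps 29 (63%, against 41.3%). With the common lowest value there were 11 (23.9%, against 16.2%). A single array left out gave 3 to 6 (6 without sham replicate 1 or 2), against 3.71% to 6.41% of all probes. Without both arrays numbered 3 there were 4 (8.7%, against 4.05%). The common lowest value and the omission of both arrays numbered 3 were chosen after seeing the data.

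Of 229 differences of the 18 fully described genes under alternatives, 211 kept their sign and 18 turned, none past the threshold. As deposited, these were Kcnh2 (-0.08), Kcnq1 (-0.26), Slc11a2 (-0.16), Slc12a2 (-0.11) and Slc26a2 (-0.18). Slc8a1 turned after median scaling (0.03) and Slc26a2 among probes above the lowest value on all arrays (-0.05). With a single array left out, Kcnh2 lay between -0.04 (without CPB replicate 3) and 0.47, Kcnq1 between -0.17 (without CPB replicate 2) and 0.21, Slc16a8 between -0.73 and 0.03 (without sham replicate 3), and Slc26a2 between -0.46 (without sham replicate 1) and 0.46. Without both arrays numbered 3 it was Kcnh2 (-0.14), Slc12a2 (-0.04) and Slc16a8 (0.05). The cause of these turns was not tested.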
